A study of Bos taurus with 6 samples.

Results

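Fast and slow troponins and tropomyosins, the calcium-sensing switch of the muscle thin filament, were measured in longissimus thoracis, a long muscle running along the back, of 6 Japanese Black steers, castrated males of a beef breed. The members were the probe sets annotated with exactly 1 gene symbol, that symbol being 1 of 10 listed genes. Of these genes 9 were found, out of 9155 genes measured, with 13 probe sets out of 24016 tested. TNNI1, slow troponin I, had no probe set under its symbol and is not analysed here. Gene symbols alone matched probe sets to the listed genes, with no measured value used. The genes themselves were listed with earlier results of these data known.

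The steers were 13 to 14 months old at the start and 20 to 21 months at the end, and during 7 months of fattening the feed was set for 1.0 kg of growth a day. Steers of the supplemented group were given vitamin A by mouth once a week at 296.8 IU per kg of body weight, while those of the restricted group had their vitamin A supplementation withheld. Each group had 3 steers, and each array holds a different steer. At sampling the supplemented steers were 600, 612 and 618 days old and the restricted ones 589, 595 and 611 days. The youngest animal is thus restricted steer 1 and the oldest supplemented steer 3. Labelled RNA was made from 100 ng of total RNA for a 3 prime expression array. A whole muscle sample holds fibres, vessels, connective tissue and fat, and in it fewer cells of a type and less RNA per cell cannot be told apart.

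Each thin filament is a strand of actin with tropomyosin wound along it and a troponin complex at regular steps. Troponin T ties the complex to tropomyosin, troponin I blocks the contact of actin with myosin at rest, and troponin C binds calcium and lifts the block. Fast-twitch and slow-twitch fibres use troponins from different genes. TNNT3, TNNI2 and TNNC2 encode the fast forms, and TNNT1, TNNI1 and TNNC1 the slow forms, of which TNNC1 also serves the heart. TNNT2 encodes the troponin T of heart muscle, also made in immature skeletal muscle. Among tropomyosins, TPM1 encodes the alpha form of fast fibres and of heart and smooth muscle, TPM3 the alpha form of slow fibres, and TPM2 the beta form found in both fibre types. Shorter tropomyosins from these genes are made in many other cells.

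The troponin genes lie in troponin I and T pairs in the ARS-UCD2.0 cattle annotation. TNNT3 and TNNI2, both fast, have 2 protein-coding genes between them (PRR33 and LSP1). TNNI1 and TNNT2 have 1 between them (LAD1), and TNNT1 stands next to TNNI3, the heart troponin I, with 0 between.

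The deposited values are taken as log2, since they run from about 5 to 13, but neither the base of the logarithm nor the normalization is given in the sources used here. Their spread over the 6 arrays is very small, with a median range of 0.677 millionths of a unit over all tested probe sets. For this reason values are given as deviations from the probe set's mean over the 6 arrays, in millionths of a deposited log2 unit, and no difference is read as a fold change. Differences between the diets are restricted minus supplemented. They are also given in within-group standard deviations (SD), a measure that stays the same if a probe set's values are multiplied by a constant.

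Fast and slow troponins were bright on every array, and heart troponin T was dim. All 3 fast troponin probe sets, the 3 slow ones and both of TPM2 lay above 99% of the tested probe sets in mean level, the 8 of them running from 10.24 for TNNT1 to 12.53 for TNNC2. TPM3 (6.83 and 6.01) and the brighter TPM1 probe set (6.41) were lower on the deposited log2 scale. TNNT2 (4.96) and the second TPM1 probe set (4.99) lay in the lowest 25%. The brightness of a probe set depends on its own probes, so these levels do not rank the genes by transcript number.

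**Figure D1:**
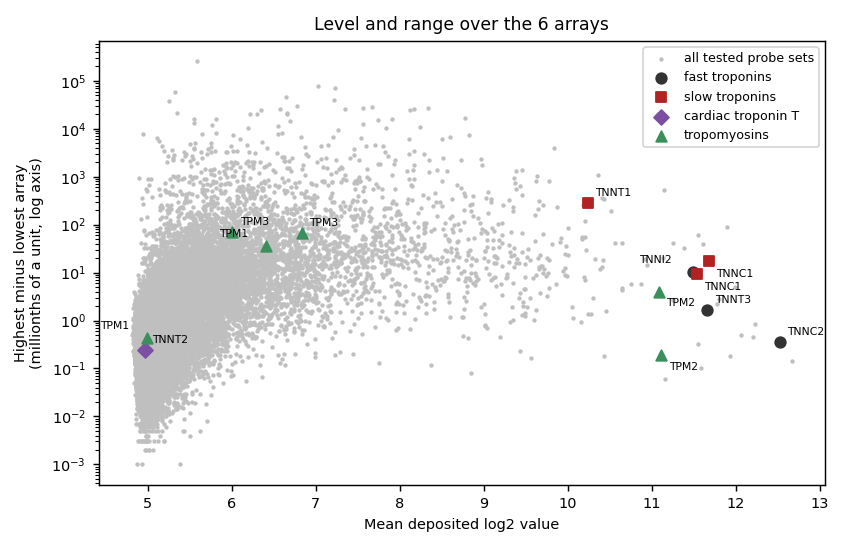
Mean deposited log2 value (horizontal axis) and distance between the highest and the lowest of the 6 arrays in millionths of a unit (vertical log axis) for the tested probe sets in grey and the 13 member probe sets in colour; the 2 probe sets that are equal on all arrays cannot be drawn. TNNC2 is the brightest member but spans 0.360 millionths, while TNNT1 spans 284.2.

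Among member probe sets the range in deposited units was widest in TNNT1 and narrowest in the brighter probe set of TPM2. How the values were scaled is not stated, so these ranges do not rank the genes by how much the steers differed. The plot of level against range shows TNNT1 spanning 284.2 millionths, more than 98.1% of all tested probe sets. Both probe sets of TPM3 (67.8 and 70.5) and the brighter one of TPM1 (36.0) also had wide ranges. The range of TNNC2 was 0.360 and that of the brighter TPM2 probe set 0.190, against 4.01 in the dimmer one of the same gene. For scale, the last deposited digit of values above 10 is worth 0.01 millionths. Among the 62 tested probe sets with a mean above 10 the range ran from 0.0600 to 1071.2, with a median of 8.92, so bright probe sets as such were not narrow.

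Between the diets, no troponin or tropomyosin differed beyond the spread of the steers. With limma's moderated test, 0 of 13 member probe sets passed a Benjamini-Hochberg adjusted p of 0.05, where 0.00416% of all tested probe sets did, and 0 had an unadjusted p under 0.05, where 4.08% did. The groups overlapped in all 13, while they did not overlap in 8.76% of all tested probe sets. Every member differed by less than 1 within-group SD, as did 73.1% of all tested probe sets. The value was above 0 in 8 members and below 0 in 5. The median size of the difference was 0.350 SDs over members and 0.582 SDs over all tested probe sets. The largest was that of TNNI2, at -0.98 SDs (limma unadjusted p = 0.267), and the adjusted p of every member was 1. The 95% intervals reached about as far as -3.03 SDs for TNNI2 and 2.96 SDs for a TPM3 probe set, so 3 steers a diet leave room for differences of that size.

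**Figure D2:**
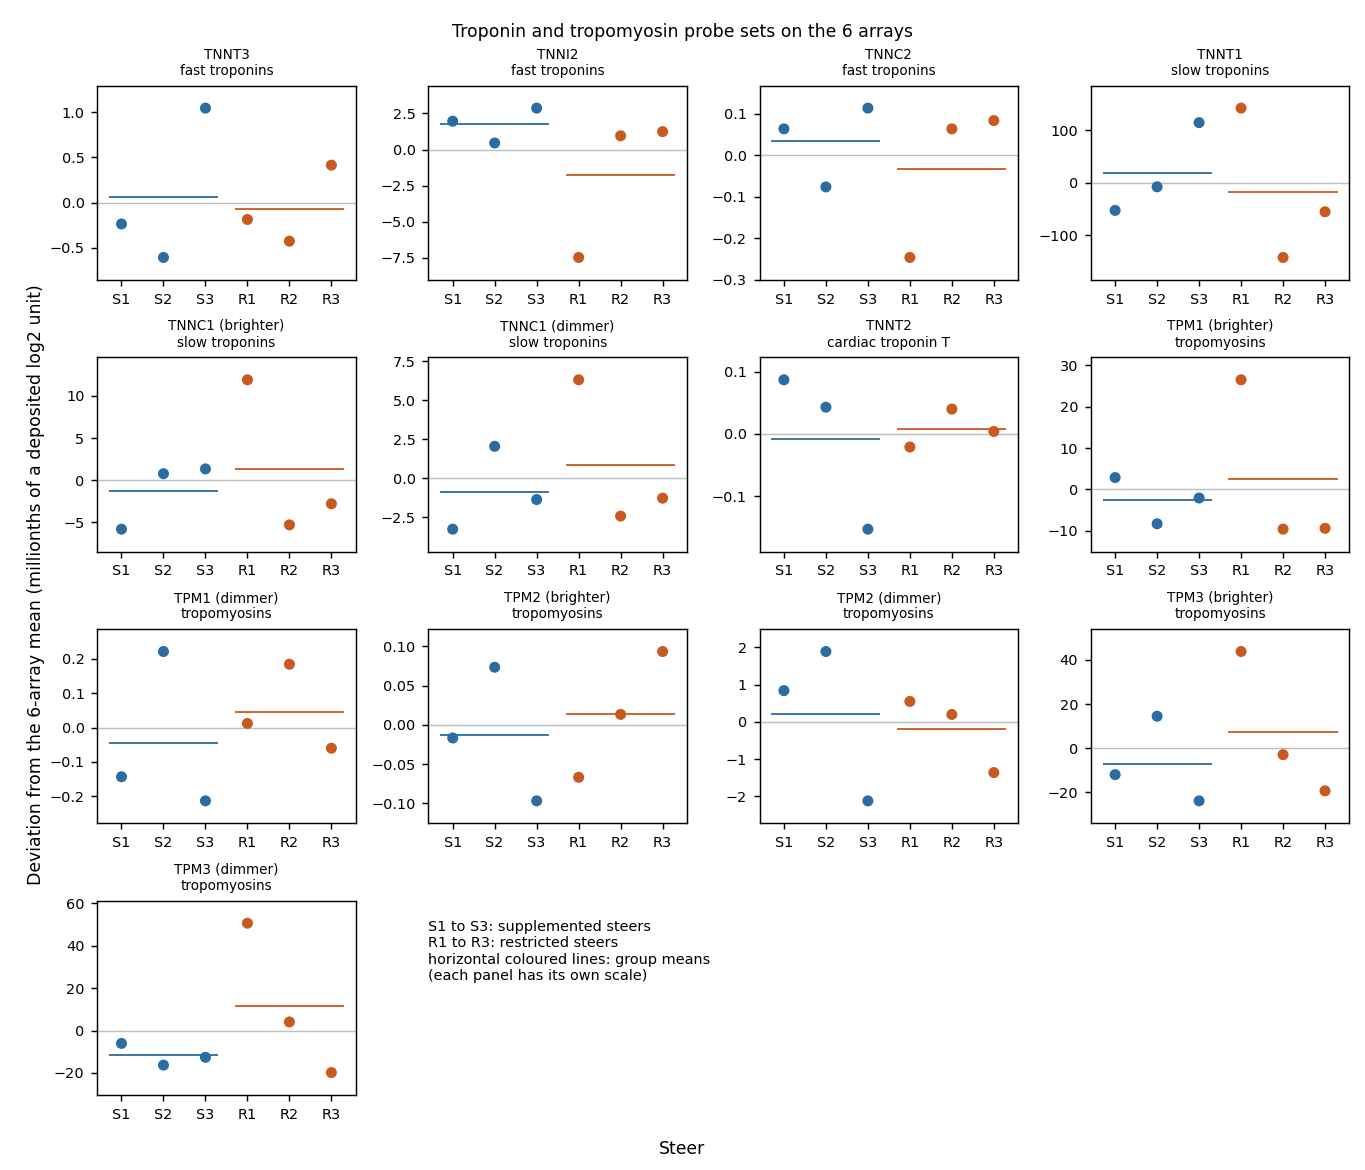
Deviation of each array from the probe set's 6-array mean, in millionths of a deposited log2 unit, for the 13 member probe sets; S1 to S3 are supplemented and R1 to R3 restricted steers, coloured lines are group means, and each panel has its own scale. The groups overlap in every panel. R1 is the highest array in 6 panels and the lowest in 2, and S3 is the highest in 3 and the lowest in 5.

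TNNI2, fast troponin I, was set apart by 1 restricted steer. Its deviations were 1.96, 0.453 and 2.87 millionths in supplemented steers 1 to 3, and -7.49, 0.953 and 1.24 in restricted steers 1 to 3. Restricted steer 1 lay far below the other 5, with 76.6% of the whole range between it and the next, and the other restricted steers lay inside the supplemented range. The difference was -3.53 millionths with a standard error (SE) of 2.79, or -0.98 SDs (95% interval -3.03 to 1.08). It was -0.66 SDs without restricted steer 1.

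TNNC2, fast troponin C, had its lowest value in the same steer. Its deviations were 0.0633, -0.0767 and 0.113 millionths in supplemented and -0.247, 0.0633 and 0.0833 in restricted steers. The gap between restricted steer 1 and the next array was 47.2% of the range. The difference was -0.45 SDs (95% interval -2.55 to 1.65, limma unadjusted p = 0.596), and 0.49 SDs without restricted steer 1, the opposite sign.

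TNNT3, fast troponin T, did not follow that order. Its deviations were -0.237, -0.607 and 1.04 millionths in supplemented and -0.187, -0.427 and 0.413 in restricted steers. Supplemented steer 3 was highest, as it was for TNNI2 and TNNC2, and restricted steer 1 lay in the middle. The difference was -0.19 SDs (95% interval -2.25 to 1.86), and its sign turned without supplemented steer 3 (0.92 SDs) and without restricted steer 2 (0.06 SDs). The TNNT3 probe set is of the kind designed to match several transcripts of the gene, which is spliced in many ways, so a shift between its isoforms may not be seen.

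Slow troponins had their highest value in restricted steer 1, the steer with the lowest TNNI2 and TNNC2. For TNNT1, slow troponin T, the deviations were -52.4, -7.51 and 114.6 millionths in supplemented steers and 142.3, -141.9 and -55.0 in restricted steers. Supplemented steer 3 came close to restricted steer 1, and restricted steer 2 was lowest by 30.6% of the range. The restricted group thus held both the highest and the lowest steer, and its SD of 145.6 millionths compares with 86.4 in the supplemented group (n = 3 each). The difference was -36.5 millionths (SE 92.4) or -0.30 SDs (limma unadjusted p = 0.711). It was -1.48 SDs without restricted steer 1, and its sign turned without supplemented steer 3 (0.10 SDs) and without restricted steer 2 (0.24 SDs).

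TNNC1, the troponin C of slow fibres and heart, has 2 probe sets that put restricted steer 1 at the top and supplemented steer 1 at the bottom. In the brighter probe set, of a kind whose probes may match related transcripts, the deviations were -5.85, 0.755 and 1.33 millionths in supplemented and 11.9, -5.34 and -2.83 in restricted steers. In the dimmer one they were -3.27, 2.05 and -1.37 in supplemented and 6.32, -2.43 and -1.28 in restricted steers. The gap between restricted steer 1 and the next array took 59.7% of the range in the brighter and 44.5% in the dimmer one. The other restricted steers lay inside the supplemented range in both. Differences were 0.35 and 0.45 SDs (limma unadjusted p = 0.671 and 0.589), and -0.83 and -0.44 SDs without restricted steer 1.

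TNNT2, heart troponin T, showed a dim and nearly flat signal. Its deviations were 0.0870, 0.0430 and -0.153 millionths in supplemented and -0.0210, 0.0400 and 0.00400 in restricted steers. Supplemented steer 3 alone was low, and the restricted steers lay close together. The difference was 0.17 SDs (95% interval -2.00 to 2.33), which became -1.86 SDs without supplemented steer 3 and -0.0079 without restricted steer 2. It was -0.76 SDs after setting all array medians equal, and 0.20 SDs after shifting each array by its median deviation.

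Of the tropomyosins, TPM3, the slow alpha form, repeated the high value of restricted steer 1 in both of its probe sets. In the brighter probe set the deviations were -12.0, 14.5 and -23.9 millionths in supplemented and 43.8, -2.97 and -19.4 in restricted steers. In the dimmer one they were -6.05, -16.3 and -12.6 in supplemented and 50.7, 4.08 and -19.8 in restricted steers. Restricted steer 3 was the lowest array of the dimmer probe set and among the lowest 2 of the brighter, so the groups overlapped in both. Differences were 0.53 and 0.91 SDs (limma unadjusted p = 0.526 and 0.297), and -0.23 and 0.36 SDs without restricted steer 1.

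TPM1, the alpha form of fast fibres and of smooth muscle, had the same steer on top in its brighter probe set. The deviations were 2.87, -8.29 and -2.07 millionths in supplemented and 26.5, -9.58 and -9.38 in restricted steers. The gap above the next array was 65.4% of the range, and the other restricted steers were the lowest 2 arrays. The difference was 0.33 SDs (limma unadjusted p = 0.690), and -1.53 SDs without restricted steer 1. The dimmer probe set did not repeat this. Its deviations were -0.143, 0.221 and -0.213 millionths in supplemented and 0.0118, 0.184 and -0.0602 in restricted steers, a difference of 0.48 SDs. That difference was -0.72 SDs after setting all array medians equal, and 0.50 SDs after shifting each array by its median deviation.

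The 2 probe sets of TPM2, the beta form, shared neither their order nor the sign of the difference. In the brighter probe set the deviations were -0.0167, 0.0733 and -0.0967 millionths in supplemented and -0.0667, 0.0133 and 0.0933 in restricted steers, a difference of 0.32 SDs. In the dimmer one they were 0.840, 1.89 and -2.12 in supplemented and 0.550, 0.200 and -1.36 in restricted steers, a difference of -0.25 SDs. Supplemented steer 3 was lowest in both, and restricted steer 3 was highest in the brighter and next to lowest in the dimmer. The sign of the brighter turned without supplemented steer 3 (-0.20 SDs), without restricted steer 3 (-0.17 SDs) and after setting all array medians equal (-0.74 SDs). Shifting each array by its median deviation left the brighter at 0.37 SDs. The sign of the dimmer turned without supplemented steer 2 (0.30 SDs) and without restricted steer 3 (0.10 SDs). The dimmer probe set is, like that of TNNT3, of the kind designed to match several transcripts of the gene, and the brighter is not. Whether the 2 measure the same transcripts was not tested.

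**Figure D3:**
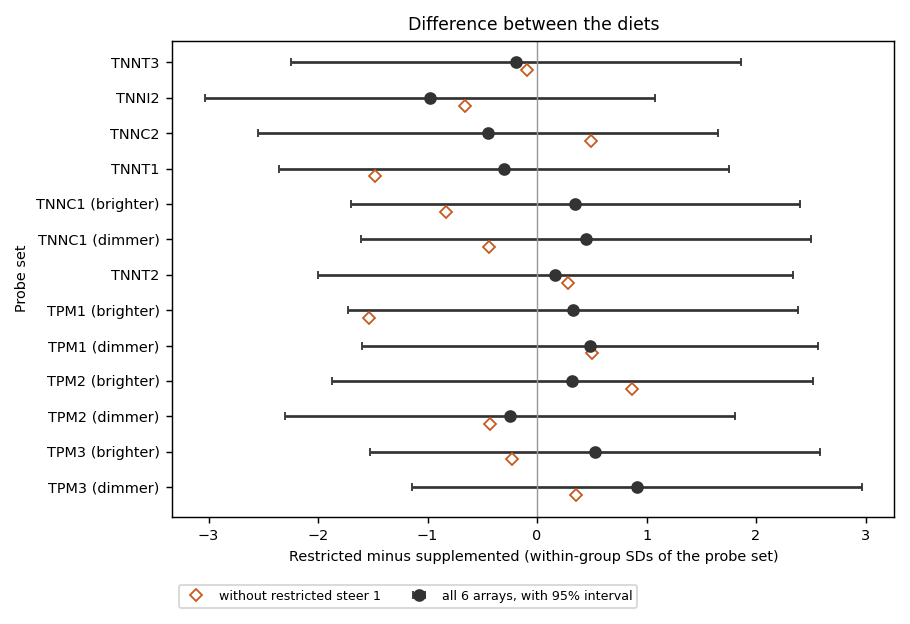
Restricted minus supplemented difference of each member probe set in its within-group SDs, with all 6 arrays (filled circles, bars are 95% intervals) and without restricted steer 1 (open diamonds). All intervals cover 0, and without that steer the sign turns in 5 of 13.

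Set side by side, the fast troponins had a median difference of -0.45 SDs over 3 genes and the slow troponins one of 0.02 SDs over 2 genes, where all tested probe sets had a median of -0.03. All 3 fast probe sets had a value below 0, as 51.5% of all tested probe sets did, and of the slow ones 2 of 3 were above 0. Fast minus slow was -0.47 SDs. Without restricted steer 1 the slow median was -1.15 SDs and fast minus slow was 1.06 SDs, and the sign of fast minus slow thus turned without that steer. With age as a covariate and all 6 steers kept, the fast median was 0.16 SDs, the slow one -0.09 and fast minus slow 0.25 SDs, so this sign turned there as well. Counting every probe set gave a slow median of 0.35 SDs and fast minus slow of -0.80 SDs. The tropomyosins had a median of 0.33 SDs over 3 genes, and 5 of their 6 probe sets lay above 0. That median was -0.18 SDs with age as a covariate. Signs turned without restricted steer 1 in 5 of the 13 members, as the plot of differences between the diets shows.

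Across steers rather than diets, the fast and slow troponins lay furthest apart in restricted steer 1. A profile was taken as the mean over a class's genes of the deviation in SDs over the 6 arrays, with the brightest probe set of each gene. The fast profile was 0.199, -0.474 and 1.09 in supplemented and -1.36, 0.00727 and 0.536 in restricted steers. The slow profile was -0.686, 0.0231 and 0.627 in supplemented and 1.56, -1.06 and -0.468 in restricted steers. Fast minus slow was -2.92 in restricted steer 1, while the other 5 steers lay between -0.497 and 1.07. In supplemented steer 3 both profiles were above 0, and in the other 5 steers they lay on opposite sides of 0. The fast profile was the higher of them in supplemented steer 1 and restricted steers 2 and 3. The slow one was the higher in supplemented steer 2 and restricted steer 1. The fast value of restricted steer 2 and the slow value of supplemented steer 2 were near 0. The group means of fast minus slow were 0.285 ± 0.709 with supplementation and -0.285 ± 2.29 with restriction (SD, n = 3).

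**Figure D4:**
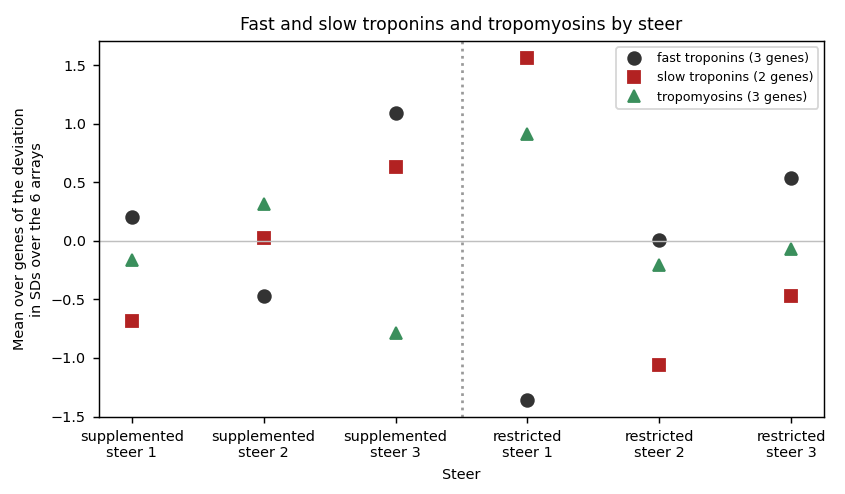
Mean deviation of the fast troponins (3 genes), slow troponins (2 genes) and tropomyosins (3 genes) in each steer, in SDs over the 6 arrays (vertical axis), with 1 probe set a gene. Restricted steer 1 has the lowest fast value (-1.36) and the highest slow (1.56) and tropomyosin (0.916) values.

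Restricted steer 1 was the highest array in 3 of 3 slow troponin probe sets and 3 of 6 tropomyosin ones, and the lowest in 2 of 3 fast ones. Supplemented steer 3 was the highest in 3 and the lowest in 5 of the 13 members, against 6 and 2 for restricted steer 1. Without supplemented steer 3 the sign of the difference turned in TNNT3, TNNT1, TNNT2 and the brighter TPM2 probe set. Restricted steer 1 was singled out after its values were seen. Over all tested probe sets it was highest in 16.5% and lowest in 17.8%. Among the 62 with a mean above 10 it was highest in 7 and lowest in 14, so its array as a whole did not stand at the top. Some lists of markers of other cells were also highest in it, and others were not. Its mean over the 8 smooth muscle and pericyte markers was 0.857 SDs against -0.330 to -0.0196 in the other steers, with ACTA2, MYH11, TAGLN and CNN1 highest in it and LMOD1 and PDGFRB lowest. Its mean over the 5 measured fat cell markers of 6 listed was 1.20 SDs against -0.854 to 0.592, with 4 of the 5 highest in it, and that over 5 endothelial markers was 0.830 against -0.592 to 0.229. Fibroblast markers had a mean of 0.331 SDs in it against 1.62 in supplemented steer 1, leukocyte markers 0.492 against 0.905 in supplemented steer 2, and red blood cell markers 0.245 against 0.623 in supplemented steer 2. MYF5, the 1 measured satellite cell marker of 4 listed, was lowest in it at -1.78 SDs. Its signal was dim, with a mean of 5.02, at the 28.9th percentile of tested probe sets. The part of these cells and of the steer's age in the troponin and tropomyosin values was not tested.

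Of 7 markers of the skeletal muscle fibre, 4 were measured. ACTA1, skeletal muscle actin, was the brightest tested probe set at 12.67, the muscle creatine kinase CKM stood at 11.55 and desmin, DES, at 9.71, while the calcium channel subunit CACNA1S was at 4.95, in the lowest 25%. Among heart markers TNNI3, the heart troponin I gene beside TNNT1, was at 4.98, in the lowest 25% like TNNT2, and the heart hormone NPPA and the atrial light chain MYL4 were at 5.40 and 5.16, near or above the middle of the tested probe sets. Of 6 heart markers 3 were measured, with 2 above and 1 below 0, and 2 of the 3 were highest in restricted steer 1, where their mean was 0.698 SDs against -0.739 to 0.276.

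Other genes of the contractile apparatus gave no call. Of 13 measured thin filament partners out of 17 listed, 4 had a value above 0 and 9 below, with a median of -0.22 SDs, and 0 had a limma unadjusted p under 0.05. Those with the smallest p were TNNI3 (1.78 SDs, -0.73 after setting all array medians equal), TMOD1, which caps the pointed end of actin filaments (-1.36 SDs), and ACTN3, the Z-disc actinin of fast fibres (-1.32 SDs). Shifting each array by its median deviation put TNNI3 at 2.06 SDs. Of 7 measured other fast fibre genes out of 13 listed, 1 was above 0 and 6 below, with a median of -1.32 SDs, and 2 of the 7 had groups that did not overlap, both lower, where 4.64% of all tested probe sets were of that kind. These 2 were the glycogen phosphorylase PYGM (-4.13 SDs, limma unadjusted p = 0.00424) and the fast myosin heavy chain MYH1 (-3.46 SDs, limma unadjusted p = 0.00836), followed by phosphofructokinase PFKM (-1.63 SDs). These are values of the brightest probe set. Counting all probe sets, 6 of 8 lay below 0 for MYH1 and 2 of 3 for PFKM, while PYGM has 1. None of the 7 passed the limma adjusted threshold, and 2 had an unadjusted p under 0.05. Beside them, all 5 measured fat cell markers had a value above 0 (median 0.97 SDs). CFD led at 6.35 SDs (limma unadjusted p = 0.000717) with no overlap of the groups, where 4.12% of all tested probe sets were higher in this way. It was at 1.18 SDs after quantile normalization, and 0 of the 5 fat cell markers passed the limma adjusted threshold. Without restricted steer 1, CFD was at 5.81, ADIPOQ at 1.37, FABP4 at 0.58, CIDEC at 0.25 and LEP at -0.04 SDs. Only 1 of the 2 LEP probe sets lay above 0. Also above 0 were 6 of 8 smooth muscle and pericyte markers (median 0.95 SDs). So were 4 of 5 endothelial (0.70) and 3 of 4 leukocyte ones (0.25), where 48.3% of all tested probe sets lay above 0. Without restricted steer 1, MYH11 was at -0.47, PTPRC at -0.18 and CD14 at -0.81 SDs, and the others of these stayed above 0. With all array medians equal, CNN1, VWF, CD14 and CD68 were below 0. Shifting each array by its median deviation left those above 0. Below 0 were 4 of 6 fibroblast markers (median -0.17 SDs) and 2 of 4 red blood cell ones (-0.36). MYF5 (-0.68 SDs) and 3 of 4 skeletal muscle fibre markers (-0.10) were below 0 too. The part of these cells in the values of the fast fibre genes was not tested.

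Of 9 measured other slow fibre genes out of 12 listed, 4 were above 0 and 5 below, with a median of -0.19 SDs, and 0 had a limma unadjusted p under 0.05. The Z-disc protein MYOZ2 (-1.04 SDs), myoglobin MB (-0.84 SDs) and the slow calcium pump ATP2A2 (0.81 SDs) had the smallest. The mean of these slow genes in restricted steer 1 was 0.313 SDs and in supplemented steer 3 0.638 SDs, so the steer with the highest slow troponins did not have the highest mean of the other slow genes. The other fast fibre genes had a mean of -0.527 SDs in restricted steer 1, near the -0.542 and -0.416 of the other restricted steers and below the 0.178 to 0.971 of the supplemented ones. These values did not overlap between the diets, whereas those of the fast troponin profile did. Of single tested probe sets, 4.64% were lower without overlap, and no such share was taken for list means. The list was chosen with earlier results of these data known and holds PYGM and MYH1, whose groups did not overlap. A test of the difference between these patterns was not made.

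Among 11 measured regulators of fibre type out of 22 listed, 5 were above 0 and 6 below, and 0 passed the limma adjusted threshold. MYOG, the myogenic factor myogenin, differed by 2.51 SDs (limma unadjusted p = 0.0265) with no overlap of the groups, where 4.12% of all tested probe sets were higher in this way. It was -0.28 SDs after setting all array medians equal, and 2.53 SDs after shifting each array by its median deviation. TEAD4, a transcription factor of muscle differentiation, was at -1.22 SDs and PPARGC1A, a coactivator of oxidative metabolism, at 0.97 SDs. PPARGC1A was at -0.20 with equal medians and at 0.97 with the shift by median deviation, and 2 of its 4 probe sets lay above 0. MYOG and PPARGC1A were both highest in restricted steer 1, and TEAD4 lowest.

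The genes with the pattern most like the fast troponin profile over the 6 arrays were ACTR8, ZNF274, WDR54, CCDC51 and WDR77, with Pearson correlations of 0.980 to 0.972 as a description. Those most like the slow profile were SPCS1, SMG6, SYNE1, POMGNT1 and PLIN5, at 0.982 to 0.972. Neither group of 5 holds a gene of the lists of thin filament, fibre type or regulator genes. Of the 6291 candidate genes, 59 (0.938%) and 46 (0.731%) were above 0.9. The named genes were picked as the highest of these over only 6 arrays.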

How the data were processed

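The authors deposited 1 table of values for 24128 probe sets on 6 arrays. The deposited values are taken here as log2 from their range. The log base, background correction, normalization and summarization are not stated in any source used here. RNA was extracted with Trizol and RNeasy columns, per the labels' protocols. Values were used as deposited, without the 112 control probe sets. The other 24016 went into 1 limma model (version 3.58.1, R 4.3.3; lmFit, then eBayes with no trend) of restricted against supplemented steers, and p-values were adjusted by Benjamini-Hochberg over all 24016 at a threshold of 0.05. The within-group SD is the residual SD of that fit (4 residual degrees of freedom). Intervals are 95% and use the moderated SE. The script was tested on simulated data. Arrays give no molecule counts, and their number limits the precision.

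Symbols came from a platform annotation table, and all 9 member gene identifiers matched the ARS-UCD2.0 annotation with 0 changed symbols. No coordinates are printed since the array's build is not named. Named genes were every member, up to 3 genes of each contractile and regulator list by smallest unadjusted p, and the 5 genes most like the fast and slow profiles among genes above the median level. In lists the brightest probe set stands for a gene. Members and lists were chosen with earlier results of these data known, so lists are described by counts and medians. Alternatives were 3 scalings, 2 level filters, a trend with robust variances, array weights, age as a covariate, a replicate block, every probe set in place of the brightest, TPM1 and TPM3 joined to the fast and slow classes, and leaving out each steer. Same-numbered steers of the 2 diets are different animals, so the numbers were not taken as pairs in the main model. Their deviations correlated at 0.0374, 0.0151 and 0.0152 over probe sets. Differently numbered steers of the 2 diets were all lower, from -0.0214 to 0.0061.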

Additional observations from a re-analysis of the deposited data

How the results depend on the processing

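No member probe set passed the adjusted threshold under any alternative run, so 0 was the count throughout, and with each steer left out in turn it was 0 to 0. Differences below are in within-group SDs. With a replicate block the fast troponin median was -0.43, the slow one 0.01, the tropomyosin one 0.43 and fast minus slow -0.44, and no call or sign changed. Medians of the arrays were 8.88 millionths apart, yet the median deviation of an array was at most 0.00817 millionths. Shifting by the latter, a setting chosen after seeing the data, turned no sign. Shifting to the same median turned the dimmer TNNC1 probe set (-0.15), TNNT2 (-0.76), the dimmer TPM1 probe set (-0.72) and the brighter TPM2 probe set (-0.74). The span of array medians exceeds the median range of tested probe sets, 0.677 millionths. In narrow probe sets this shift can therefore fix the sign by itself. With age as a covariate TNNT3 (0.58), TNNC2 (0.16), TNNT2 (-0.39), the brighter TPM1 probe set (-0.43) and the brighter TPM3 probe set (-0.18) turned, and with array weights TNNT3 (0.0205). With age all class values changed sign, to 0.16 for the fast median, -0.09 for the slow one, -0.18 for the tropomyosins and 0.25 for fast minus slow. With equal array medians the slow median turned to -0.14 and the fast one was -0.74. Counting every probe set gave a slow median of 0.35 and fast minus slow of -0.80, and joining TPM1 to the fast and TPM3 to the slow class gave -0.67. The cause was not tested. Quantile normalization left 15489 probe sets equal on all arrays (residual SD under 1e-12), gave values for only 2 members and put the brighter TPM1 probe set at 0, so class medians could not be had with it. Level filters dropped the 2 dim members.

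Leaving out each steer gave ranges of -0.83 to -0.09 for the fast median, -1.15 to 0.54 for the slow one, -0.23 to 0.92 for the tropomyosins and -1.28 to 1.06 for fast minus slow. By probe set they were -0.75 to 0.92 for TNNT3, -0.83 to 0.49 for TNNC2, -1.48 to 0.24 for TNNT1, -0.83 to 0.85 and -0.44 to 0.89 for TNNC1 (brighter, then dimmer), -1.86 to 0.75 for TNNT2, -1.53 to 0.72 for the brighter TPM1 probe set, -0.20 to 0.96 and -1.68 to 0.30 for TPM2 (brighter, then dimmer), and -0.23 to 1.11 for the brighter TPM3 probe set. TNNI2 stayed below 0 (-1.40 to -0.66), and the dimmer TPM3 probe set (0.36 to 2.00) and the dimmer TPM1 probe set (0.04 to 2.10) above it.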
